A study of Mus musculus with 8 samples.

Results

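DNA replication genes were followed in XCR1+ dendritic cells of the mouse spleen, the dendritic cell type that carries CD8α there and presents antigen to cytotoxic T cells. The set holds 47 genes chosen by name. It covers the licensing and firing of replication origins, the polymerases with their clamp, the supply of deoxynucleotides, the G1/S switch and chromatin assembly at the fork. All 47 were measured, among 19938 genes with a table row of their own, and where a gene had several rows the one with the highest mean over all arrays was used. Values are log2 expression units, in which 1 unit is a doubling. A change is the difference of 2 group means, given ± the standard error of the linear model.

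Each of 8 samples was hybridised to 1 array. All came from untreated mice that carry an Il12b-EYFP reporter, in which the yellow fluorescent protein follows expression of Il12b, the gene of the IL-12 p40 subunit. Cells were sorted from the spleen as lineage-negative, Bst2 negative or low, CD11c high and CD8α positive, and then divided by CCR7, the chemokine receptor that matured dendritic cells use to migrate, and by the reporter. CCR7+Il12b+ cells gave 2 arrays, CCR7+Il12b- cells 3 arrays and CCR7-Il12b- cells, called immature here, 3 arrays. The labels give no age of the mice. They also do not say that the replicates are separate animals, so the p-values rest on a spread that may be technical. The comparisons address how XCR1+ dendritic cells change as they mature in untreated animals.

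Ccr7 was higher by 3.97 units in CCR7+Il12b+ cells and by 3.59 units in CCR7+Il12b- cells, against immature cells. Il12b had 12.35 and 12.22 in CCR7+Il12b+ cells, 10.84, 10.82 and 10.77 in CCR7+Il12b- cells, and 6.88, 7.09 and 7.11 in immature cells. The Il12b transcript was thus 3.78 units higher in the cells sorted as reporter-negative than in immature cells, which goes against a reading of that label as lacking the transcript, and 1.48 units higher in CCR7+Il12b+ cells than in CCR7+Il12b- cells. Il12b- is used here as the name of the reporter gate alone. Correlations over all genes were 0.987 between the CCR7+Il12b+ arrays, 0.986 to 0.992 among CCR7+Il12b- arrays and 0.992 to 0.996 among immature arrays. Of 14 XCR1+ dendritic cell markers, 13 had a mean above the background mark in CCR7+Il12b+ cells, where Itgae was below it, and 14 in each of the other groups. Yet against immature cells 10 of the 14 were called lower in CCR7+Il12b+ cells (where 17.9% of all genes were) and 7 in CCR7+Il12b- cells (where 14.5% were). In each, 2 were called higher, where 14.1% and 9.1% of all genes were. That mark, 5.01 log2 units, is the value under which 95% of the group means of 1194 receptor genes of smell and pheromone sensing lie. Of the members, 41 had a mean above it in CCR7+Il12b+ cells, 45 in CCR7+Il12b- cells and 46 in immature cells. Orc1 lay below the mark in all groups and Gins1 in both CCR7+ groups, while Ccne2, E2f8, Pola1 and Prim2 lay below it in CCR7+Il12b+ cells.

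To copy its genome a cell first loads the MCM helicase onto origins in G1 and then, at the G1/S switch, activates it and assembles the polymerases. Much of this machinery is transcribed in a burst before S phase, when cyclin-dependent kinases release E2F transcription factors from the retinoblastoma protein. Cells that leave the cell cycle lose these transcripts. Part of the conventional dendritic cells of the spleen divide in place, whereas matured dendritic cells are regarded as non-dividing.

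E2F proteins recognise a short GC-rich word beside a run of T, and promoters of replication genes are known for it. RefSeq promoters of GRCm38.p6, from 250 bases before to 50 bases after the annotated start, were at hand for 39 of the 47 members. Ccne2, Gins1, Gins2, Gmnn, Mcm4, Pole, Prim2 and Rfc2 had none in the table used. The words searched, on both strands, were TTTCCCGC, TTTCGCGC, TTTGCCGC and TTTGGCGC. At least 1 of them occurred in 16 of the 39 members (41.0%), against 704 of 27025 genes with a promoter (2.6%). By promoter, the count was 16 of 46 (34.8%) for members and 744 of 32851 (2.26%) for all. A match describes these letters and is not evidence of binding. The promoters below are those of the MCM helicase genes with 2 or more matches, and of Gins3 and Tk1, the members called higher in a CCR7+ group. They read 5′ to 3′ along the gene, and capitals mark the E2F words.
Mcm6: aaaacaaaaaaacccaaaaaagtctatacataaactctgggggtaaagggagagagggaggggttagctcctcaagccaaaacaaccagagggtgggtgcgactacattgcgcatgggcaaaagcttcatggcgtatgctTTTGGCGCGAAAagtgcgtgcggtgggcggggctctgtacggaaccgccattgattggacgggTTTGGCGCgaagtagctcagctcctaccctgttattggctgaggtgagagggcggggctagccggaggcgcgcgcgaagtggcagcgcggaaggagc
Mcm3: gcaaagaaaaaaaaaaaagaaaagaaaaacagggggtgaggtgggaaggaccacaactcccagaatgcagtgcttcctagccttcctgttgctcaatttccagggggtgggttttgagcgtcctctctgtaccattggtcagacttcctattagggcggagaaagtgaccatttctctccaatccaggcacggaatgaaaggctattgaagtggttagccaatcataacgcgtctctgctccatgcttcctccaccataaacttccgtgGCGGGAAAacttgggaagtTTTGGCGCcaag
Mcm7: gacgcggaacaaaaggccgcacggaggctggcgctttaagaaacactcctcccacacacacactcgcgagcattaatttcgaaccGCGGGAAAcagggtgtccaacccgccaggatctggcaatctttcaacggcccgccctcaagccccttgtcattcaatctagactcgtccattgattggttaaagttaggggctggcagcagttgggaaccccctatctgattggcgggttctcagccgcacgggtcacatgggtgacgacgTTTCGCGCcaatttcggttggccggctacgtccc
Mcm5: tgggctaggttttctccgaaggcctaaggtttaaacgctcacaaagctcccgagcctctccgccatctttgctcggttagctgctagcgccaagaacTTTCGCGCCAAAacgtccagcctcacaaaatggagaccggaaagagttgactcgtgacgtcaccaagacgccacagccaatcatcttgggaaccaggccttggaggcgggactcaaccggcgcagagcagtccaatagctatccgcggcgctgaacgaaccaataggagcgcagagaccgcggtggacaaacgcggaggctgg
Gins3: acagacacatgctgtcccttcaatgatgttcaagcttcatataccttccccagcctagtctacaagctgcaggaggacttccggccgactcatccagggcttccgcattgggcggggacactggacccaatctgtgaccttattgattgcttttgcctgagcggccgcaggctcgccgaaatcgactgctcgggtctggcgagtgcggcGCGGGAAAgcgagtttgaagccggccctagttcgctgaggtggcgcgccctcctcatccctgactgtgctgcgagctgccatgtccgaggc
Tk1: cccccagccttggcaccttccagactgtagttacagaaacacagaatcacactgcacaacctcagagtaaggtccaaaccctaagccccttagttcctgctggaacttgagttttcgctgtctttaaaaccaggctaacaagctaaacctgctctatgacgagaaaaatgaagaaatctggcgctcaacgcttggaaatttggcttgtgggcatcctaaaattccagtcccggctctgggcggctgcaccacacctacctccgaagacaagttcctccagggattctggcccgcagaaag

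The Mcm6 promoter lies at chr1:128359656-128359955 on the minus strand. Counted from the start at 1, with no 0, its words begin at -110 and -106, where they overlap, and at -47. Mcm3, at chr1:20820263-20820562 on the minus strand, has words that begin at 20 and 39. For Mcm7 the window with matches is chr5:138171834-138172133 on the minus strand, with words at -165 and 17. Mcm5, at chr8:75109259-75109558 on the plus strand, has an overlapping pair at -153 and -149. Gins3, at chr8:95633309-95633608 on the plus strand, has 1 word at -41. The Tk1 window at chr11:117825965-117826264 on the minus strand holds none of the words.

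Most of the set was lower in both matured groups. In CCR7+Il12b+ cells against immature cells, 37 of 47 members were called lower, where 17.9% of all genes were, and 2 were called higher (Gins3 and Tk1), where 14.1% of all genes were. Of the same members, 35 were called lower in CCR7+Il12b- cells against immature cells, where 14.5% of all genes were, and Tk1 alone was called higher, where 9.1% of all genes were. The median change of the 47 members was -1.06 in the first comparison and -0.67 in the second, while the medians over all genes were 0.09 and 0.06. These comparisons share the immature arrays, so their values are given side by side and not as independent evidence. A lower mean in sorted bulk cells cannot tell fewer cells in S phase from less of each transcript per cell.

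Array by array, the median of the 47 members was 5.80 and 5.84 in CCR7+Il12b+ cells, 6.31, 6.36 and 6.16 in CCR7+Il12b- cells, and 6.89, 7.0 and 7.24 in immature cells. The 3 groups did not overlap in this median, whereas the median of all genes stayed between 5.45 and 5.56 on every array. Within the immature group, replicate 1 held the lowest value for 33 of 47 members and replicate 3 the highest for 36. Within the CCR7+Il12b- group, replicate 3 was lowest for 23 of 47. Gene by gene, all CCR7+Il12b+ arrays lay below all immature arrays for 42 members, where 23.6% of all genes did so. All CCR7+Il12b- arrays lay below all immature arrays for 39 members, against 19.2% of all genes. Arrays lay wholly above the immature ones for 2 members in CCR7+Il12b+ cells (33.5% of all genes) and for 1 in CCR7+Il12b- cells (22.1% of all genes).

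**Figure D1:**
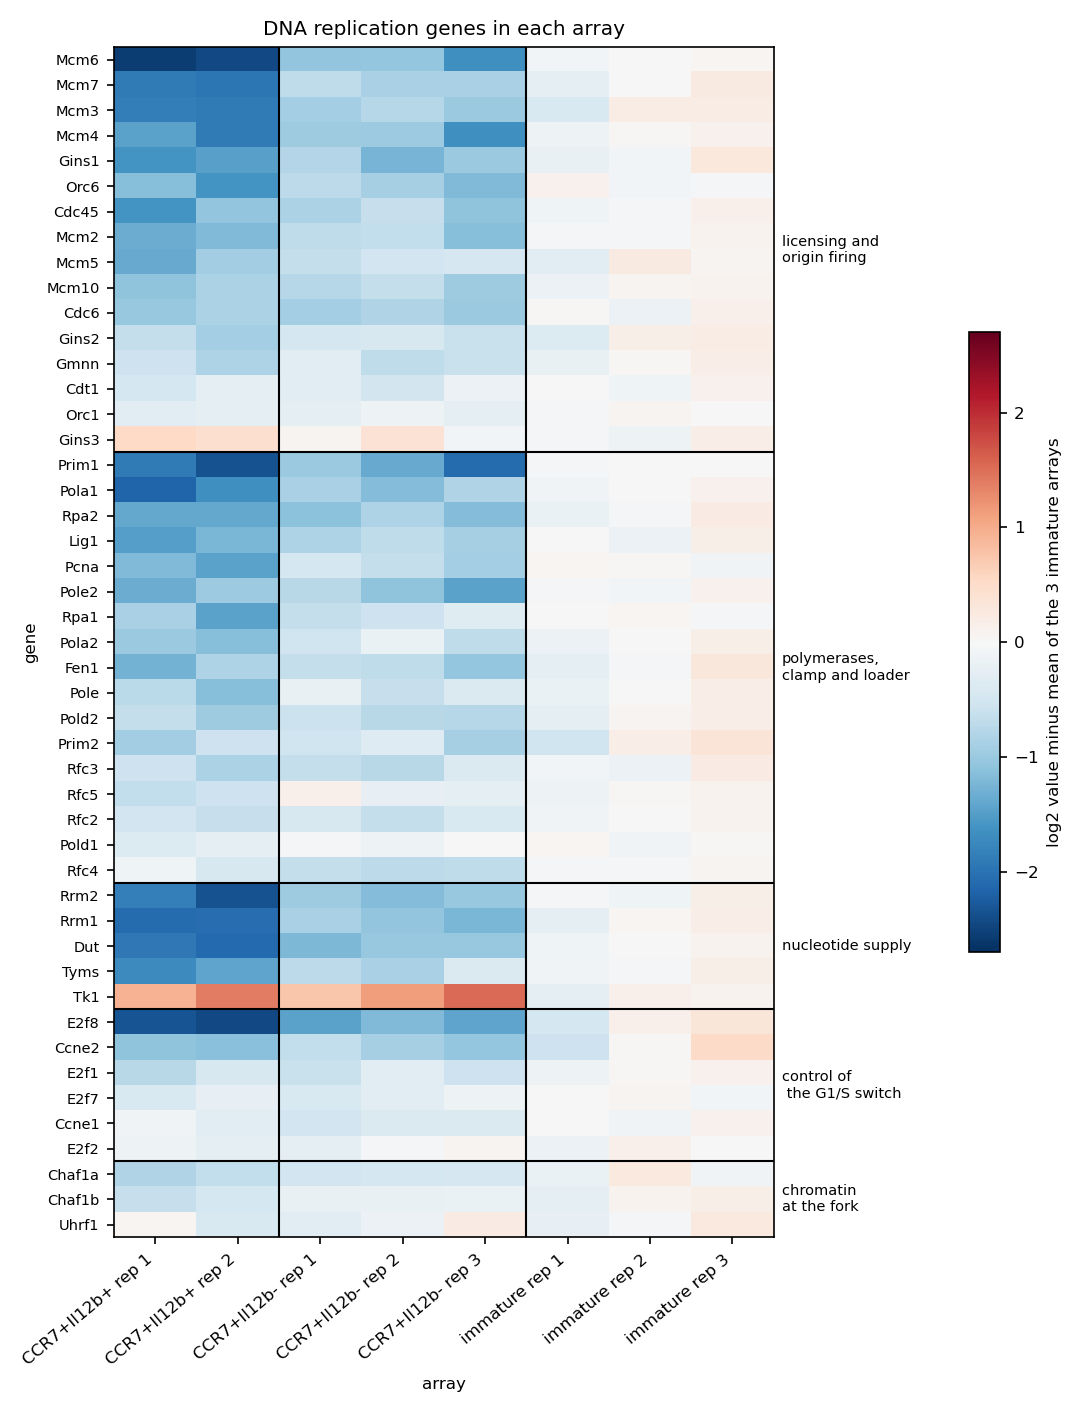
Heat map of the 47 members (rows, by role) on the 8 arrays (columns, by group), with colour showing the log2 value minus the mean of the immature arrays. Most rows are coloured as lower on the CCR7+Il12b+ arrays, where the median change was -1.06, and Tk1 has the opposite colour in both CCR7+ groups.

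Licensing and origin firing was lower in both matured groups. Of its 16 members, 13 were called lower in CCR7+Il12b+ cells against immature cells, where 17.9% of all genes were. Gins3 alone was called higher there, where 14.1% of all genes were. In CCR7+Il12b- cells against immature cells, 13 were called lower, where 14.5% of all genes were. The median changes over the 16 were -1.21 and -0.82. Mcm6, a subunit of the hexameric MCM helicase, had 5.77 and 5.89 in CCR7+Il12b+ cells, 7.28, 7.29 and 6.68 in CCR7+Il12b- cells, and 8.27, 8.35 and 8.38 in immature cells. The groups were fully separated, with CCR7+Il12b- cells in between. Its change was -2.51 ± 0.17 in CCR7+Il12b+ cells (5.68-fold lower, adjusted p = 1.23e-06) and -1.26 ± 0.16 in CCR7+Il12b- cells (2.39-fold lower, adjusted p = 0.000189), both against immature cells.

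The other helicase subunits were called lower as well. Mcm7 had 5.67 and 5.62 in CCR7+Il12b+ cells, 6.88, 6.70 and 6.70 in CCR7+Il12b- cells, and 7.34, 7.56 and 7.81 in immature cells. Mcm3 had 5.48 and 5.46 in CCR7+Il12b+ cells, 6.44, 6.60 and 6.35 in CCR7+Il12b- cells, and 6.96, 7.56 and 7.57 in immature cells. Both genes separated all 3 groups. Against immature cells, Mcm7 fell by 1.93 ± 0.14 in CCR7+Il12b+ cells and by 0.81 ± 0.13 in CCR7+Il12b- cells, and Mcm3 fell by 1.89 ± 0.18 and by 0.90 ± 0.16 in the same groups. Mcm4 had 6.29 and 5.82 in CCR7+Il12b+ cells, 6.76, 6.74 and 6.08 in CCR7+Il12b- cells, and 7.58, 7.76 and 7.83 in immature cells, so replicate 3 of CCR7+Il12b- cells lay between the CCR7+Il12b+ arrays. The changes against immature cells were -1.67 ± 0.21 and -1.20 ± 0.19. Mcm2 (-1.26 and -0.83) and Mcm5 (-1.15 and -0.54) completed the hexamer, each called lower in both CCR7+ groups.

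Among the factors that load the helicase, Orc6 and Cdc6 were called lower and Orc1 and Cdt1 were not. Orc6, a subunit of the origin recognition complex, had 7.17 and 6.71 in CCR7+Il12b+ cells, 7.62, 7.42 and 7.12 in CCR7+Il12b- cells, and 8.44, 8.25 and 8.27 in immature cells. Its changes against immature cells were -1.38 ± 0.17 (adjusted p = 9.61e-05) and -0.93 ± 0.16 (adjusted p = 0.00128). Cdc6, the ATPase that loads MCM together with Cdt1, had 5.37 and 5.54 in CCR7+Il12b+ cells, 5.47, 5.58 and 5.39 in CCR7+Il12b- cells, and 6.41, 6.23 and 6.51 in immature cells. The CCR7+ groups overlapped one another and lay below immature cells by 0.93 and 0.90 units. Cdt1 ranged from 5.86 to 6.08 in CCR7+Il12b+ cells, from 5.83 to 6.16 in CCR7+Il12b- cells and from 6.20 to 6.45 in immature cells. Its groups did not overlap with immature cells, but its changes of -0.36 ± 0.14 (adjusted p = 0.075) and -0.32 ± 0.12 (adjusted p = 0.0881) were not called. Gmnn, the inhibitor of Cdt1, was called lower at -0.70 ± 0.16 and -0.52 ± 0.14. Orc1, the ATPase subunit of the origin complex, stayed below the background mark in all groups, between 4.57 and 4.93, so no fold is given.

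Cdc45, Mcm10, Gins1 and Gins2, which activate the helicase, were called lower in both matured groups against immature cells. Cdc45, which binds MCM and GINS to form the active helicase, had 5.73 and 6.26 in CCR7+Il12b+ cells, 6.48, 6.71 and 6.24 in CCR7+Il12b- cells, and 7.22, 7.31 and 7.48 in immature cells, with changes of -1.34 ± 0.18 and -0.86 ± 0.16 against immature cells. Mcm10, which acts at the same step, changed by -0.97 ± 0.14 and -0.79 ± 0.12. Of the GINS subunits, Gins1 was at least 1.55-fold lower in CCR7+Il12b+ cells and at least 1.55-fold lower in CCR7+Il12b- cells, a bound because both groups lay below the background mark. Gins2 was called lower at -0.78 ± 0.17 and -0.50 ± 0.16.

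Gins3, of the same complex, went the other way in CCR7+Il12b+ cells. It had 6.78 and 6.69 in CCR7+Il12b+ cells, 6.31, 6.61 and 6.16 in CCR7+Il12b- cells, and 6.17, 6.10 and 6.42 in immature cells. The CCR7+Il12b+ arrays were above all others, while the CCR7+Il12b- and immature arrays overlapped. The rise against immature cells was 0.50 ± 0.15 (1.42-fold, adjusted p = 0.0263), and that of CCR7+Il12b- cells, 0.13 ± 0.14, was not called (adjusted p = 0.546). The call was lost when either CCR7+Il12b+ array, or immature replicate 1 or 2, was left out, with an adjusted p of up to 0.104, so that 1 member in place of 2 was then called higher.

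Polymerases, clamp and loader held 17 members. Against immature cells, 15 were called lower in CCR7+Il12b+ cells (where 17.9% of all genes were) and 13 in CCR7+Il12b- cells (where 14.5% were). The median changes were -1.06 and -0.67. Prim1, the catalytic primase subunit that starts each new strand, had 5.79 and 5.36 in CCR7+Il12b+ cells, 6.70, 6.34 and 5.62 in CCR7+Il12b- cells, and 7.67, 7.72 and 7.71 in immature cells. The immature arrays were almost equal and well above the rest, and CCR7+Il12b- replicate 3 lay between the CCR7+Il12b+ arrays. Prim1 fell by 2.13 ± 0.25 in CCR7+Il12b+ cells (4.38-fold lower, adjusted p = 6.27e-05) and by 1.48 ± 0.23 in CCR7+Il12b- cells (2.79-fold lower, adjusted p = 0.000746) against immature cells. Pola1, the catalytic subunit of polymerase α that extends the primer, had 4.51 and 5.01 in CCR7+Il12b+ cells, 5.79, 5.50 and 5.85 in CCR7+Il12b- cells, and 6.57, 6.66 and 6.78 in immature cells. It was at least 3.15-fold lower in CCR7+Il12b+ cells, whose mean lay below the background mark, and 1.94-fold lower in CCR7+Il12b- cells.

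Pcna, the sliding clamp that holds polymerases on DNA, had 9.66 and 9.42 in CCR7+Il12b+ cells, 10.38, 10.20 and 9.93 in CCR7+Il12b- cells, and 10.90, 10.89 and 10.77 in immature cells. The groups were separated, and the changes against immature cells were -1.31 ± 0.15 (adjusted p = 3.99e-05) and -0.68 ± 0.13 (adjusted p = 0.00319). Lig1, the ligase that joins Okazaki fragments, changed by -1.36 ± 0.14 and -0.81 ± 0.12, and Fen1, the nuclease that trims their flaps, by -1.06 ± 0.20 and -0.79 ± 0.18. The single-strand binding subunits Rpa2 (-1.39 and -1.04) and Rpa1 (-1.16 and -0.51) were called lower in both CCR7+ groups.

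Subunits of the replicative polymerases were called in part. Pole2, the second subunit of polymerase ε, had 4.94 and 5.30 in CCR7+Il12b+ cells, 5.54, 5.21 and 4.84 in CCR7+Il12b- cells, and 6.25, 6.22 and 6.40 in immature cells, and fell by 1.17 ± 0.19 and 1.09 ± 0.17 against immature cells. Pole, its catalytic subunit, was called in CCR7+Il12b+ cells at -0.94 ± 0.17, and in CCR7+Il12b- cells -0.40 ± 0.15 was not called (adjusted p = 0.0864). For polymerase δ, the second subunit Pold2 was called lower at -0.80 ± 0.15 and -0.70 ± 0.14. The catalytic subunit Pold1 had 6.63 and 6.76 in CCR7+Il12b+ cells, 6.95, 6.87 and 6.99 in CCR7+Il12b- cells, and 7.06, 6.91 and 7.04 in immature cells. Its CCR7+Il12b+ arrays were the lowest, and neither -0.31 ± 0.11 (adjusted p = 0.0622) nor -0.06 ± 0.10 (adjusted p = 0.70) was called.

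The small subunits of the clamp loader were likewise called in part. Rfc2 (-0.57 and -0.49) and Rfc3 (-0.71 and -0.59) were called lower in both CCR7+ groups against immature cells. Rfc4 had 6.51 and 6.18 in CCR7+Il12b+ cells, 5.98, 5.92 and 5.94 in CCR7+Il12b- cells, and 6.59, 6.56 and 6.70 in immature cells. CCR7+Il12b- arrays were the lowest of the 3 groups, with a called change of -0.67 ± 0.11, and the change of -0.27 ± 0.13 in CCR7+Il12b+ cells was not called (adjusted p = 0.124). Rfc5 had 7.46 and 7.56 in CCR7+Il12b+ cells, 8.25, 7.91 and 7.88 in CCR7+Il12b- cells, and 8.0, 8.17 and 8.21 in immature cells. Here CCR7+Il12b+ arrays were the lowest, with a called change of -0.62 ± 0.14, while CCR7+Il12b- and immature arrays overlapped.

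Nucleotide supply gave the largest median change in CCR7+Il12b+ cells among the 5 roles, -2.02 over 5 members, and -1.05 in CCR7+Il12b- cells. Rrm2, the regulated subunit of ribonucleotide reductase, had 6.22 and 5.72 in CCR7+Il12b+ cells, 7.10, 6.89 and 7.03 in CCR7+Il12b- cells, and 8.03, 7.94 and 8.21 in immature cells. Rrm1, the large subunit, had 6.08 and 6.10 in CCR7+Il12b+ cells, 7.29, 7.10 and 6.92 in CCR7+Il12b- cells, and 7.92, 8.22 and 8.35 in immature cells. Both subunits separated the 3 groups and changed by nearly the same amounts. Rrm2 changed by -2.09 ± 0.16 and -1.05 ± 0.14, and Rrm1 by -2.07 ± 0.15 and -1.06 ± 0.14, in CCR7+Il12b+ and CCR7+Il12b- cells against immature cells.

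Dut, which removes dUTP and so keeps uracil out of DNA, had 5.27 and 5.11 in CCR7+Il12b+ cells, 6.0, 6.19 and 6.19 in CCR7+Il12b- cells, and 7.10, 7.22 and 7.31 in immature cells. It was 4.05-fold lower in CCR7+Il12b+ cells (-2.02 ± 0.12, adjusted p = 5.03e-07) and 2.12-fold lower in CCR7+Il12b- cells (-1.08 ± 0.11, adjusted p = 4.79e-05). Tyms, thymidylate synthase, which makes dTMP from dUMP, had 5.94 and 6.23 in CCR7+Il12b+ cells, 6.97, 6.80 and 7.28 in CCR7+Il12b- cells, and 7.57, 7.61 and 7.81 in immature cells. It fell by 1.58 ± 0.16 and 0.65 ± 0.14, again with the groups apart.

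**Figure D2:**
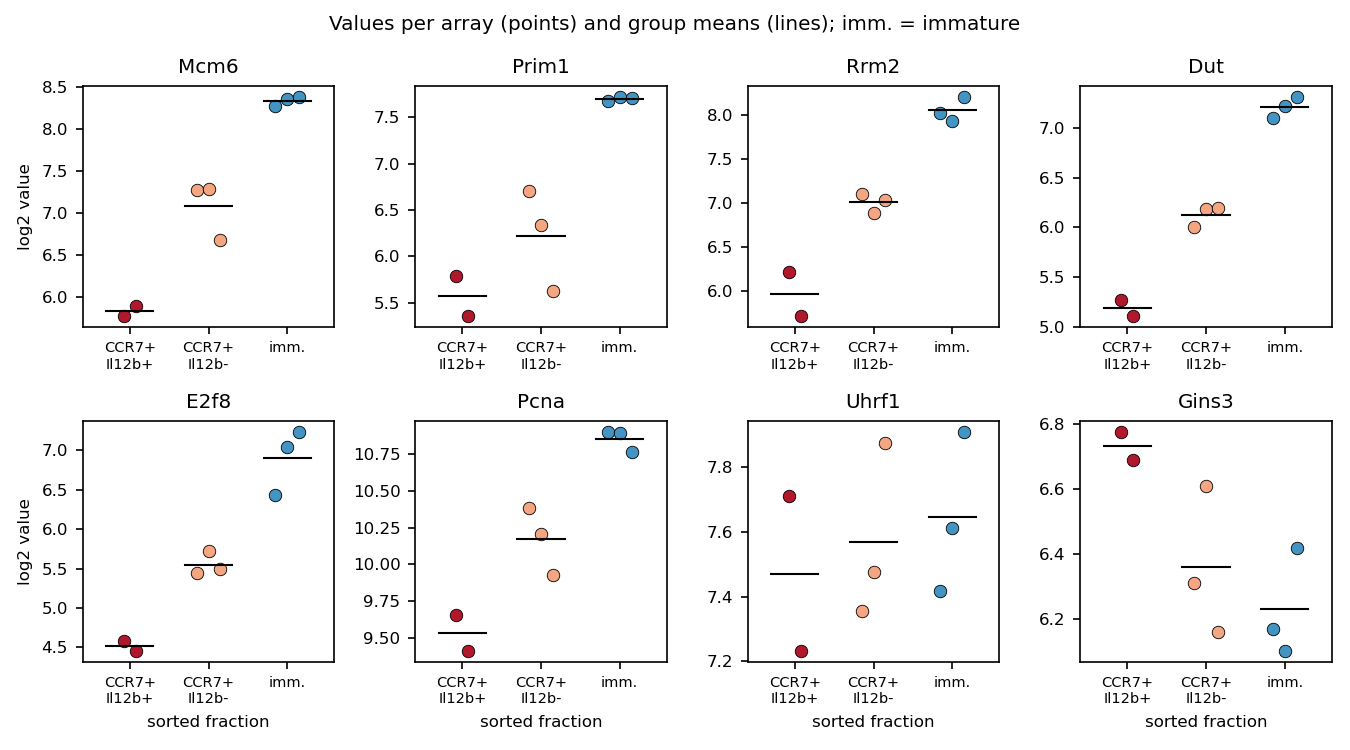
Log2 values of 8 members on each array, with points for arrays and lines for group means, in CCR7+Il12b+, CCR7+Il12b- and immature cells from left to right. Mcm6, Rrm2, Dut, E2f8 and Pcna step up from group to group without overlap, CCR7+Il12b- replicate 3 of Prim1 falls among the CCR7+Il12b+ arrays, Uhrf1 overlaps throughout and Gins3 is highest in CCR7+Il12b+ cells.

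Tk1, thymidine kinase 1, which salvages thymidine for S phase, was the exception. In the row used, it had 10.35 and 10.78 in CCR7+Il12b+ cells, 10.15, 10.54 and 10.93 in CCR7+Il12b- cells, and 9.17, 9.55 and 9.50 in immature cells. The CCR7+ groups overlapped one another and lay above immature cells. The rise was 1.16 ± 0.22 in CCR7+Il12b+ cells (2.23-fold, adjusted p = 0.0017) and 1.13 ± 0.20 in CCR7+Il12b- cells (2.19-fold, adjusted p = 0.00158).

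That rise depends on which of the gene's 2 rows is read. The dimmer row had 7.56 and 7.96 in CCR7+Il12b+ cells, 7.52, 8.18 and 7.99 in CCR7+Il12b- cells, and 7.30, 7.49 and 7.35 in immature cells. It gave 0.38 ± 0.19 (adjusted p = 0.165 over all rows) and 0.52 ± 0.17 (adjusted p = 0.0547 over all rows) against immature cells, so neither call was made with it. Probe set numbers on this array run along the chromosomes. Of the 10 rows nearest in number to the dimmer row, 10 name genes of chromosome 11, where Tk1 lies. Of the 10 rows nearest to the brighter row, 9 name genes of chromosome 8, and the adjacent ones are Tarbp1 and Irf2bp2. Which transcript the brighter row reads was not tested. For Pcna, the other member with 2 rows, both rows gave nearly the same changes, -1.31 and -1.34 in CCR7+Il12b+ cells and -0.68 and -0.69 in CCR7+Il12b- cells. Its row used has 10 of 10 neighbours on chromosome 2, where the gene lies, and its other row has 9 of 10 on chromosome 19.

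**Figure D3:**
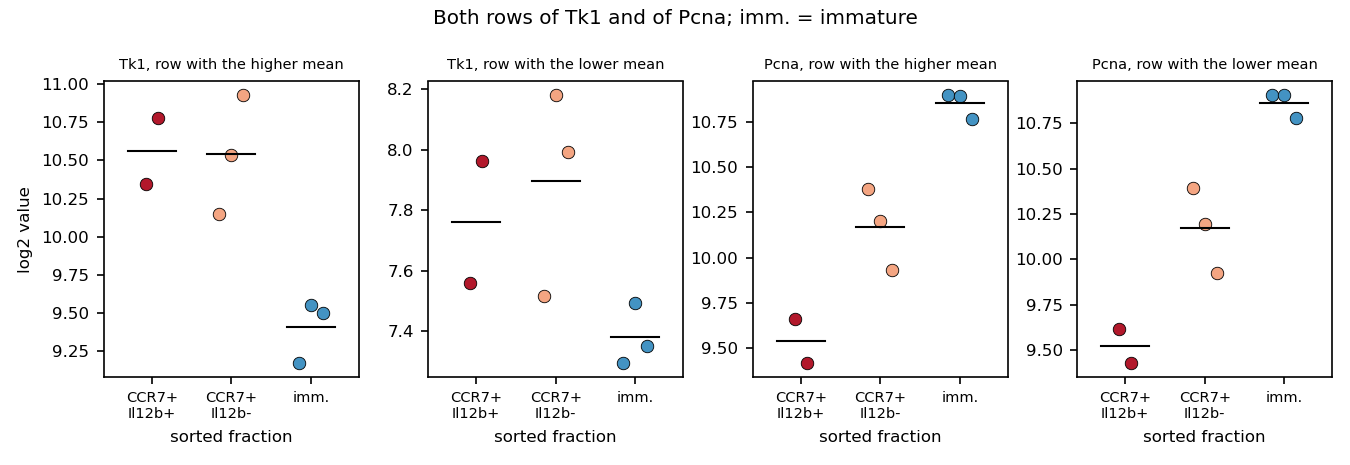
Log2 values on each array for both table rows of Tk1 and of Pcna, by group with CCR7+Il12b+ on the left. The brighter Tk1 row is higher in both CCR7+ groups by 1.16 and 1.13, the dimmer by 0.38 and 0.52, whereas both Pcna rows are lower by nearly the same amounts.

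Control of the G1/S switch was called in part. Against immature cells, 3 of 6 members were called lower in CCR7+Il12b+ cells (where 17.9% of all genes were). In CCR7+Il12b- cells 4 were called lower (where 14.5% were). In each, 0 were called higher, where 14.1% and 9.1% of all genes were. E2f8, an atypical E2F that represses E2F targets late in S phase, had 4.57 and 4.46 in CCR7+Il12b+ cells, 5.45, 5.72 and 5.49 in CCR7+Il12b- cells, and 6.43, 7.04 and 7.24 in immature cells. It was at least 3.70-fold lower in CCR7+Il12b+ cells, where its mean lay below the background mark, and 2.55-fold lower in CCR7+Il12b- cells (-1.35 ± 0.18, adjusted p = 0.000328). E2f7, its close relative, had 6.24 and 6.43 in CCR7+Il12b+ cells, 6.23, 6.36 and 6.51 in CCR7+Il12b- cells, and 6.66, 6.71 and 6.56 in immature cells, and its changes of -0.31 ± 0.13 and -0.28 ± 0.11 were not called. The activator E2f1 was called lower at -0.59 ± 0.15 and -0.48 ± 0.13. The activator E2f2 had 5.61 and 5.48 in CCR7+Il12b+ cells, 5.51, 5.71 and 5.82 in CCR7+Il12b- cells, and 5.60, 5.89 and 5.75 in immature cells. All 3 groups of E2f2 overlapped, with changes of -0.20 ± 0.14 and -0.07 ± 0.12.

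The cyclins E are partners of CDK2 at the G1/S switch. Ccne2 had 5.02 and 4.98 in CCR7+Il12b+ cells, 5.45, 5.20 and 5.07 in CCR7+Il12b- cells, and 5.54, 6.14 and 6.63 in immature cells. It was at least 2.12-fold lower in CCR7+Il12b+ cells and 1.82-fold lower in CCR7+Il12b- cells, from immature values spread over more than 1 unit. Ccne1 had 6.22 and 5.99 in CCR7+Il12b+ cells, 5.78, 5.92 and 5.92 in CCR7+Il12b- cells, and 6.29, 6.21 and 6.42 in immature cells. It was called lower in CCR7+Il12b- cells at -0.43 ± 0.11 (adjusted p = 0.0153), and -0.20 ± 0.12 in CCR7+Il12b+ cells was not called (adjusted p = 0.245).

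At the fork, Chaf1a and Chaf1b, which form the histone chaperone CAF-1, were called lower in CCR7+Il12b+ cells at -0.74 ± 0.14 and -0.55 ± 0.14. In CCR7+Il12b- cells Chaf1a was called at -0.49 ± 0.12 and Chaf1b was not, at -0.19 ± 0.12 (adjusted p = 0.307). Uhrf1, which recruits the maintenance DNA methyltransferase to newly copied DNA, had 7.71 and 7.23 in CCR7+Il12b+ cells, 7.36, 7.48 and 7.87 in CCR7+Il12b- cells, and 7.42, 7.61 and 7.91 in immature cells. The groups overlapped, and its changes were not called, with changes of -0.17 ± 0.20 and -0.08 ± 0.18 and adjusted p of 0.539 and 0.797.

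Some of these calls were lost when 1 array was left out, several of them with any of a number of arrays. Against immature cells, 32 of 39 calls in CCR7+Il12b+ cells and 26 of 36 in CCR7+Il12b- cells were made in every fit that left out 1 array. Leaving out either CCR7+Il12b+ array leaves that group with a single array, so those fits take the spread from the other groups and assume that the lone array varies as they do. For CCR7+Il12b+ cells, Chaf1b and E2f1 were not called without CCR7+Il12b+ replicate 1, and Gins2, Gmnn and Rfc3 were not called without CCR7+Il12b+ replicate 2. Prim2, at least 1.5-fold lower there, was not called without either CCR7+Il12b+ array or without immature replicate 2 or 3. For CCR7+Il12b- cells, 10 calls were lost without at least 1 array. Without immature replicate 2 these were Ccne2, Chaf1a, E2f1, Gins2, Gmnn, Mcm5, Pola2 and Rpa1, and without immature replicate 3 they were Ccne1, Ccne2, E2f1, Gins2, Gmnn, Mcm5, Pola2, Rfc3 and Rpa1. Leaving out CCR7+Il12b- replicate 1 ended the calls of Ccne1, E2f1, Gins2, Mcm5, Pola2 and Rpa1, replicate 2 those of Gins2, Gmnn, Mcm5 and Rpa1, and replicate 3 those of Ccne2, E2f1, Gins2, Gmnn and Pola2. Immature replicate 1 ended the call of Rpa1. The highest adjusted p of the 10 lay between 0.0513 for Rfc3 and 0.163 for Gins2.

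The members with and without an E2F word in the promoter were counted apart. Of 16 members with a match, 9 were called lower and 1 higher in CCR7+Il12b+ cells against immature cells. Of 23 members without a match, 20 were called lower and 1 higher. Over all genes, 17.9% were called lower and 14.1% higher in that comparison. The counts lower in CCR7+Il12b- cells against immature cells were 9 of 16 with a match and 20 of 23 without (14.5% of all genes). Members with a match that were not called in either comparison were Cdt1, E2f2, E2f7, Orc1, Pold1 and Uhrf1. Mcm3, Mcm5, Mcm6 and Mcm7, whose promoters are printed above, were called lower in both. No test was made of these counts.

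The comparison within matured cells sets a higher against a lower level of Il12b, since both groups held the transcript well above immature cells. In CCR7+Il12b+ cells against CCR7+Il12b- cells, 13 of 47 members were called lower, where 4.47% of all genes were, and 0 members were called higher, where 2.61% of all genes were. At an unadjusted p under 0.05 in limma, 24 members were lower and 2, Gins3 and Rfc4, were higher. The median change was -0.35 over the members and 0.02 over all genes. CCR7+Il12b+ arrays lay below all CCR7+Il12b- arrays for 25 members, where 14.3% of all genes did so, and above them for 3, where 15.3% did. The other 34 members were not called, and Gins3, Rfc4 and Ccne1 were those with all CCR7+Il12b+ arrays higher.

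Nucleotide supply contributed 4 of its 5 members (where 4.47% of all genes were called lower), with a median of -0.94. Rrm2 changed by -1.04 ± 0.16 (adjusted p = 0.00262), Rrm1 by -1.01 ± 0.15 (adjusted p = 0.00249), Dut by -0.94 ± 0.12 (adjusted p = 0.00122) and Tyms by -0.93 ± 0.16 (adjusted p = 0.00574). Tk1 changed by 0.02 ± 0.22 and was not called. The MCM subunits contributed Mcm6 (-1.25 ± 0.17, adjusted p = 0.00169), Mcm7 (-1.11 ± 0.14, adjusted p = 0.00117) and Mcm3 (-0.99 ± 0.18, adjusted p = 0.00725). Their partners Mcm2, Mcm4 and Mcm5 changed by -0.43, -0.47 and -0.61 and were not called. From the polymerase group came Pola1, at least 1.63-fold lower, with Pola2 (-0.61), Rpa1 (-0.65), Pcna (-0.63) and Lig1 (-0.56). E2f8, at least 1.45-fold lower, was the single member of the G1/S group, and of the 3 chromatin members 0 were called, with Chaf1b lower at an unadjusted p under 0.05 in limma.

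Of these 13 calls, 5 held in each fit that left out 1 array, those of Dut, Mcm6, Mcm7, Rrm1 and Rrm2. Here too the fits without a CCR7+Il12b+ array rest on the assumption about the lone array. Without CCR7+Il12b+ replicate 1 the count fell to 6, and Lig1, Mcm3, Pcna, Pola1, Pola2, E2f8 and Tyms were lost. Without CCR7+Il12b+ replicate 2, E2f8, Pcna, Pola2 and Rpa1 were lost, and without CCR7+Il12b- replicate 1 or 2, Lig1, Pcna, Pola2 and Rpa1 were. Adjusted p rose to 0.262 for Rpa1 and 0.211 for Pola2, which were also lost without immature replicate 2 or 3, and Rpa1 without immature replicate 1. Without CCR7+Il12b- replicate 3 the count was 16, with Prim1, Mcm2, Mcm4 and Rfc5 called and Rpa1 not. That array held 5.62 for Prim1, against 6.70 and 6.34 in the other CCR7+Il12b- replicates.

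**Figure D4:**
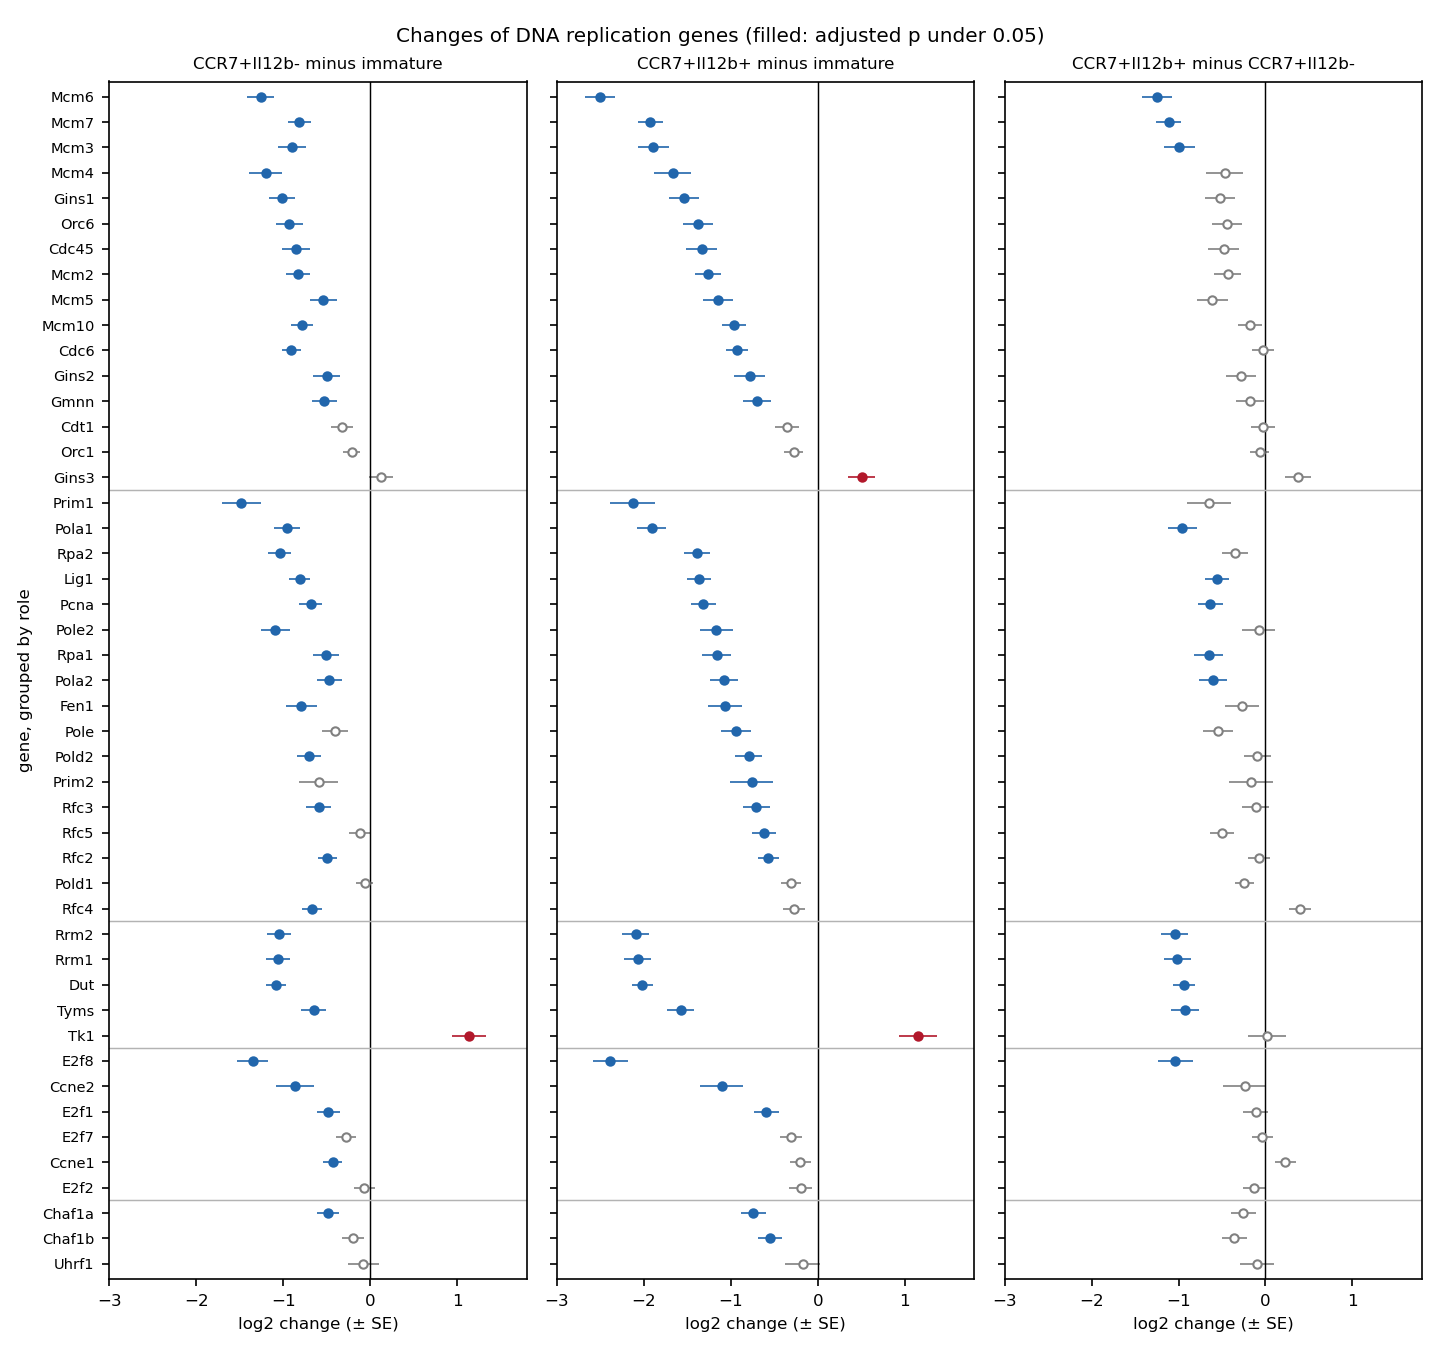
Change of each of the 47 members in log2 units, with bars of 1 standard error, in 3 panels for CCR7+Il12b- against immature cells, CCR7+Il12b+ against immature cells, and CCR7+Il12b+ against CCR7+Il12b- cells. Filled points mark the 36, 39 and 13 called members, and of these Tk1 and Gins3 alone lie to the right of 0.

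Replication factors outside the set were called as well. Of 37 measured factors, 26 (70.3%, where 17.9% of all genes were) were called lower and 1 higher in CCR7+Il12b+ cells, and 21 (56.8%, where 14.5% of all genes were) lower and 0 higher in CCR7+Il12b- cells (1 higher at an unadjusted p under 0.05 in limma), against immature cells. Between the matured groups 8 (21.6%, where 4.47% of all genes were) were lower in CCR7+Il12b+ cells. The medians were -0.78, -0.42 and -0.27 in these comparisons. Dna2, a nuclease and helicase that processes Okazaki fragments, changed by -2.23 ± 0.14 in CCR7+Il12b+ cells and -1.26 ± 0.12 in CCR7+Il12b- cells against immature cells. Tipin, of the fork protection complex, was at least 5.47-fold lower in CCR7+Il12b+ cells, and Rfc1, the large clamp loader subunit, changed by -1.77 ± 0.12. Mcm9, a relative of the MCM subunits that acts in DNA repair, was the one called higher, at 0.76 ± 0.21 (adjusted p = 0.0151). Of 15 other genes of nucleotide supply, 8 were lower (where 17.9% of all genes were) and 2 higher (where 14.1% were) in CCR7+Il12b+ cells against immature cells. In CCR7+Il12b- cells 7 were lower (where 14.5% of all genes were) and 2 higher (where 9.1% were). With 2 of 15, the counts called higher were close to those shares. Dck, deoxycytidine kinase, changed by -1.94 ± 0.20 and -0.96 ± 0.18, while Samhd1, which degrades deoxynucleotides, rose by 0.57 ± 0.11 and 0.43 ± 0.10.

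Mitosis genes showed larger median changes than the replication set. Of 28, 27 were called lower in CCR7+Il12b+ cells (where 17.9% of all genes were) and 26 in CCR7+Il12b- cells (where 14.5% were), against immature cells. Between the matured groups, 19 were lower in CCR7+Il12b+ cells (where 4.47% of all genes were). The medians were -1.85, -1.04 and -0.90 in these comparisons. Top2a, the topoisomerase of S and G2 phase, had 6.25 and 6.05 in CCR7+Il12b+ cells, 7.94, 8.34 and 7.65 in CCR7+Il12b- cells, and 9.05, 9.29 and 9.30 in immature cells. Mki67, the proliferation marker Ki-67, had 7.14 and 6.91 in CCR7+Il12b+ cells, 7.76, 8.36 and 7.85 in CCR7+Il12b- cells, and 8.70, 8.63 and 8.63 in immature cells. Both genes separated the 3 groups. Of the 28 genes, 9 had a mean below the background mark in CCR7+Il12b+ cells, as had 6 of the 47 members, so the medians there include values near the floor. Whether the mitosis genes changed more than the replication genes was not tested.

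**Figure D5:**
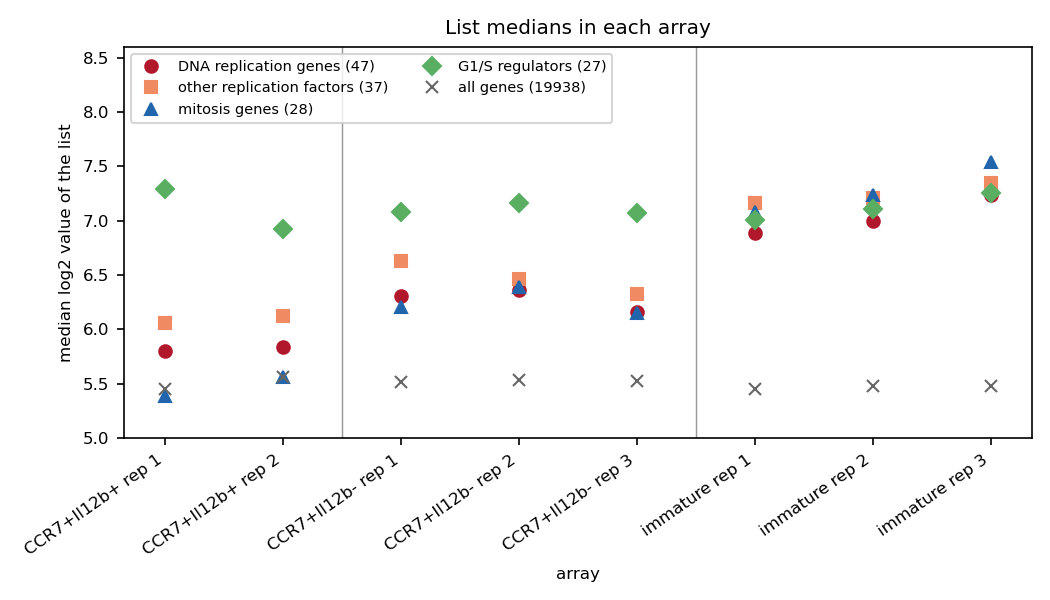
Median log2 value per array of the 47 members, 37 other replication factors, 28 mitosis genes, 27 G1/S regulators and all 19938 genes, with CCR7+Il12b+ arrays on the left and immature arrays on the right. The medians of the members are 5.80 and 5.84 on CCR7+Il12b+ arrays and between 6.89 and 7.24 on immature arrays, whereas the medians of all genes lie between 5.45 and 5.56.

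Regulators of the G1/S step split in both directions. Of 27, 12 were lower (where 17.9% of all genes were) and 7 higher (where 14.1% were) in CCR7+Il12b+ cells against immature cells. In CCR7+Il12b- cells against immature cells, 13 were lower (where 14.5% of all genes were) and 3 higher (where 9.1% were). The medians were -0.22 and -0.37. Ccna2, cyclin A2 of S phase, changed by -3.07 ± 0.24 and -1.24 ± 0.22. Myc, the growth factor-induced transcription factor, changed by -2.59 ± 0.25 and -1.58 ± 0.22. Higher were Myb, a transcription factor of haematopoietic progenitors, at 3.22 ± 0.13 and 2.24 ± 0.11, and Cdkn2b, the CDK4 and CDK6 inhibitor p15, at 2.30 ± 0.13 and 1.5 ± 0.12. Ccnd2, cyclin D2, a CDK4 and CDK6 partner, was also higher, at 1.64 ± 0.15 and 2.19 ± 0.14.

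Markers of XCR1+ dendritic cells were lower in part. Against immature cells, 10 of 14 were called lower in CCR7+Il12b+ cells (where 17.9% of all genes were) and 7 in CCR7+Il12b- cells (where 14.5% were). The 10 include Cd8a and Itgax, genes of the sort. The median change of these 14 markers was -1.32 in CCR7+Il12b+ cells and -0.39 in CCR7+Il12b- cells against immature cells. Between the matured groups it was -0.95, and 9 were called lower in CCR7+Il12b+ cells (where 4.47% of all genes were). In CCR7+Il12b+ cells against immature cells, the chemokine receptor Xcr1 changed by -3.02 ± 0.25, Tlr3, a sensor of double-stranded RNA, by -4.82 ± 0.34, the lysosomal amidase Naaa by -4.82 ± 0.29 and the dead-cell receptor Clec9a by -1.95 ± 0.18. The transcription factors Batf3 and Id2 were the 2 called higher, by 0.89 and 1.11 units. Flt3 and Zbtb46 were not called, though all CCR7+Il12b+ arrays lay above all immature arrays, as for 33.5% of all genes. The summed linear signal of the list was 12517 to 14795 in CCR7+Il12b+ cells, 16273 to 19724 in CCR7+Il12b- cells and 22593 to 24602 in immature cells.

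Markers of other cell types were called in both directions. Over all genes, 17.9% were called lower and 14.1% higher in CCR7+Il12b+ cells against immature cells. The shares were 14.5% lower and 9.1% higher in CCR7+Il12b- cells against immature cells. Among 6 monocyte and macrophage markers, 3 were lower in CCR7+Il12b+ cells, and 2 were lower and 1 higher in CCR7+Il12b- cells, against immature cells, led by Lyz2 (-3.11 and -1.45). Their summed linear signal was 268 to 386 in CCR7+Il12b+ cells, 545 to 886 in CCR7+Il12b- cells and 1647 to 1914 in immature cells. Fcgr1 and Mertk were below the background mark in all groups, and Csf1r and Lyz2 were above it in all groups. Among 8 NK cell markers 1 (12.5%), Klrd1, was lower in each comparison with immature cells, a share below those of all genes (17.9% and 14.5%), and Nkg7 was higher in CCR7+Il12b- cells. The NK sum was 175 to 196 in CCR7+Il12b+ cells, 255 to 370 in CCR7+Il12b- cells and 404 to 484 in immature cells. Ncr1, Klrb1c, Gzma, Gzmb and Eomes were below the mark throughout, and Prf1 was above it throughout. Of 7 plasmacytoid dendritic cell markers, 4 were lower and 1 higher in CCR7+Il12b+ cells, and 3 lower and 2 higher in CCR7+Il12b- cells. Their sum was 589 to 662 in CCR7+Il12b+ cells, 790 to 881 in CCR7+Il12b- cells and 683 to 854 in immature cells. Of 7 B cell markers, 6 had a mean above the mark in every group and Cd79a had not. Against immature cells, 2 of them, Cd79b and Cd22, were lower and Ms4a1 was higher in CCR7+Il12b+ cells, and Cd79a, Cd79b and Ms4a1 were higher in CCR7+Il12b- cells, Ms4a1 by 0.91 and 1.51 units. The B cell sum was 520 to 529 in CCR7+Il12b+ cells, 683 to 876 in CCR7+Il12b- cells and 439 to 496 in immature cells. Of 6 T cell markers, 2 were lower in CCR7+Il12b+ cells (Cd3d and Cd5) and 2 higher in CCR7+Il12b- cells (Cd3e and Cd2). Their sums were 196 to 229 in CCR7+Il12b+ cells, 240 to 267 in CCR7+Il12b- cells and 227 to 245 in immature cells. Cd3d and Cd3g were below the mark in all groups, and Cd3e, Cd247 and Cd5 were above it in all groups. Of 5 erythroid markers, Tfrc, the transferrin receptor, was lower (-1.63 and -1.03) and Alas2 and Car2 were higher in CCR7+Il12b+ and CCR7+Il12b- cells against immature cells. Klf1 was below the mark throughout, while Alas2, Tfrc and Epor were above it throughout. The erythroid sum was 237 to 248 in CCR7+Il12b+ cells, 250 to 272 in CCR7+Il12b- cells and 288 to 329 in immature cells. Of 8 neutrophil markers 0 were called in limma in the 3 comparisons (at an unadjusted p under 0.05, 1, Elane, was higher in CCR7+Il12b- cells against immature cells). Csf3r, Ly6g, Retnlg and Ngp were below the mark in all groups, and S100a8 and S100a9 were above it in all groups. The neutrophil sum was 210 to 218 in CCR7+Il12b+ cells, 204 to 236 in CCR7+Il12b- cells and 173 to 223 in immature cells. The part of these markers in the results was not tested.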

How the data were processed

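The study hybridised 8 sorted samples, each to its own array. RNA (3 or 20 ng, per the labels' protocols) was amplified in 2 rounds. The sources used here do not say which sample had which input, so its part in the results was not tested. The authors deposited log2 values for each probe set. Per the submitters' processing notes these came from RMA and oligo, whose versions and options, like the build, stay unnamed in the sources used here. Array medians lay between 5.25 and 5.46.

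Of 35556 rows, 21789 had exactly 1 symbol in the platform annotation, 1621 had several and 12146 had none in the table used. The row with the highest mean stood for each of 999 genes with several rows, which left 19938 genes. No gene was removed for low values. Row symbols came from the platform annotation. Promoters, chromosomes and the lookup of listed names not found came from RefSeq tables of GRCm38.p6.

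A linear model with 3 group means over all 8 arrays was fitted with lmFit and eBayes in limma 3.58.1 (R 4.3.3), with 5 residual and 5.86 prior degrees of freedom. It was also run on simulated data with independent arrays, which cannot show the effect of replicates that share an animal. Two-sided p-values were adjusted by Benjamini-Hochberg over 19938 genes, and calls were made under an adjusted p of 0.05. Where a group mean lay below the background mark, the change is a bound that sets values under the mark to the mark. Alternatives covered normalization, filters, rows, weights, priors, blocks, thresholds and each array left out. The members, lists and tests were chosen with earlier results of these data known. All members could be named, and values per array were given for those with the largest changes, those called against the main direction, those not called and up to 4 of each role. Other genes were named from lists, and those named were not always the genes of a list with the largest changes. Whether replicate numbers in the titles pair the samples was not settled, and the model used no pairing. Deviations of same-numbered arrays from their group means correlated between -0.169 and 0.216. With 2 or 3 arrays a group, such deviations are tied to one another, so these values cannot decide the question. Precision is limited by the 8 arrays.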

Additional observations from a re-analysis of the deposited data

How the results depend on the processing

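Against immature cells, the number of members called lower kept within 1.5 times its value under every alternative, between 33 and 41 in CCR7+Il12b+ cells and between 26 and 39 in CCR7+Il12b- cells. Leaving out each array gave 33 to 37 and 26 to 35. No called change of a member turned its direction. For CCR7+Il12b+ cells against CCR7+Il12b- cells, an adjusted p under 0.01 left 8 of 13 members, and leaving out each array gave 6 to 16. With each array centred on its median, Cdt1, E2f7, Orc1 and Pold1 were also called lower in CCR7+Il12b+ cells against immature cells. In CCR7+Il12b- cells against immature cells, Gins2, Mcm5 and Rpa1 were not called after quantile normalization or after cyclic loess. Pola2 was not called there after quantile normalization. The count of members higher was less stable. Against immature cells it was, for CCR7+Il12b+ cells, 1 in place of 2 with the replicate block, with an adjusted p under 0.01, with a 1.5-fold minimum and with the row of lowest mean, and 1 to 2 with each array left out. For CCR7+Il12b- cells against immature cells it was 0 with the row of lowest mean. Between the matured groups it was 1 in place of 0 after quantile normalization, and 0 to 1 with each array left out. Whether the shared replicate numbers pair the samples could not be decided. With them as a replicate block, 37, 33 and 10 members were lower in these 3 comparisons. The row of lowest mean was an alternative chosen after seeing the data, and the causes of the other differences were not tested.

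Changes that turned direction were uncalled and near 0. For CCR7+Il12b- cells against immature cells, quantile normalization gave 0.088 for Pold1, 0.00074 for Rfc5 and 0.066 for Uhrf1, and cyclic loess gave 0.064, 0.033 and 0.070. With each array left out, E2f2 ranged from -0.14 to 0.018 and Uhrf1 from -0.23 to 0.054. For CCR7+Il12b+ cells against immature cells, Uhrf1 was 0.022 after quantile normalization and -0.41 to 0.063 with each array left out. For CCR7+Il12b+ cells against CCR7+Il12b- cells, quantile normalization gave 0.032 for Cdt1, 0.046 for E2f7, 0.0063 for Rfc2 and -0.046 for Tk1. Array weights gave 0.039 for Cdt1, and the replicate block gave 0.038 for Cdt1 and 0.044 for Uhrf1. Tk1 was -0.056 as the mean of its rows and -0.14 in the row of lowest mean. With each array left out, the ranges were -0.11 to 0.057 for Cdc6, -0.14 to 0.080 for Cdt1, -0.27 to 0.047 for E2f1, -0.13 to 0.063 for E2f7, -0.26 to 0.066 for Pold2, -0.26 to 0.10 for Pole2, -0.36 to 0.023 for Prim2, -0.25 to 0.026 for Rfc3, -0.19 to 0.24 for Tk1 and -0.34 to 0.14 for Uhrf1. With 2 and 3 arrays a group, small changes of dim members such as Orc1 could not be measured.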
